A study of Homo sapiens with 6 samples.

Results

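The subunits of the transcription factor NF-κB and the proteins that hold it in check were followed in PC-3 cells depleted of CdGAP. The genes were taken by symbol: the 5 subunit genes NFKB1, NFKB2, REL, RELA and RELB, and the 5 inhibitor genes NFKBIA, NFKBIB, NFKBIE, NFKBIZ and TNFAIP3. These are 10 of the 64253 genes in the deposited count tables, and all 10 had enough reads to be tested. PC-3 is a cell line from a human prostate carcinoma. RNA-seq covered 3 libraries of PC-3 cells with CdGAP depleted by a short hairpin RNA (shCdGAP) and 3 libraries of PC-3 cells with a control hairpin (shCon). CdGAP is a GTPase-activating protein for Rac1 and Cdc42, encoded by ARHGAP31. By the study's methods the depleted PC-3 cells were grown up from single cells after puromycin selection, which is not said of the control cells, so a difference between a clone and the control population and an effect of the depletion cannot be told apart here.

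NF-κB acts as a dimer of Rel proteins. RelA and c-Rel dimers with p50, the processed product of NFKB1, are held in the cytoplasm by the IκB proteins, whose kinase-driven destruction frees them (the canonical route). RelB pairs with p52, the processed product of NFKB2, after activation of the kinase NIK (the non-canonical route). NF-κB itself induces NFKBIA and TNFAIP3, which close a negative feedback loop, and PC-3 cells are known for constitutive NF-κB activity.

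The libraries held 33182796 to 43154039 counted read pairs. ARHGAP31 fell from 59.2 ± 1.22 CPM (counts scaled to library size, SD, n = 3) in shCon cells to 26.8 ± 0.351 in shCdGAP cells (log2 fold change, log2FC, of -1.14 with a standard error, SE, of 0.0409, adjusted p = 8.75e-08 by edgeR), the direction the labels give. In bulk RNA fewer cells with a transcript and less of it per cell cannot be told apart, here and for the members. Replicate 2 of shCdGAP stood apart: over 10282 genes its log2 CPM differed from the mean of the other 2 shCdGAP libraries with an SD of 0.229, against 0.0629 to 0.141 for the other 5 libraries compared in the same way. Member results are therefore also given without it. The 4 epithelial markers (EPCAM and 3 keratins) summed to 949 to 1187 CPM in shCdGAP and 678 to 694 in shCon libraries. EPCAM (log2FC 1.35) and KRT19 (1.04) were higher in shCdGAP cells, while KRT8 (0.06) and KRT18 (0.09) overlapped between the groups. The prostate luminal markers KLK2 and KLK3 had no read in any library. Of 8 immune and endothelial markers, 3 had at most 3 reads in each library, and the summed level of the list was 2.83 to 6.70 CPM in shCdGAP and 6.46 to 6.75 in shCon libraries. Most of this sum was PECAM1, at 2.37, 5.99 and 2.71 CPM in shCdGAP and 5.63, 5.45 and 5.48 CPM in shCon replicates 1, 2 and 3. The part of these differences in the results was not tested.

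At an adjusted p under 0.01 by edgeR's quasi-likelihood test over 16439 genes, 3 of the 10 genes rose in shCdGAP cells (TNFAIP3, NFKB2 and RELB) and 2 fell (NFKBIA and NFKB1). REL, RELA, NFKBIB, NFKBIE and NFKBIZ did not pass. Among all tested genes 24.1% were called higher and 22.0% lower, so 5 of 10 called genes is close to the 46.2% called in either direction. Without shCdGAP replicate 2 the counts were 3 higher and 3 lower. More genes were called throughout in that fit, 10035 of 16727 tested against 7587 of 16439 with all libraries. No member had an absolute log2 fold change above 1, by edgeR or by DESeq2, and 0 passed that limit at an unadjusted p under 0.05 by either tool, whereas 12.8% of tested genes passed an adjusted p of 0.01 and this fold limit (8.56% higher and 4.19% lower). The median log2 fold change of the members was -0.01 and the median of its absolute value 0.28, against 0.01 and 0.31 over all tested genes. Both medians were thus close to those of the transcriptome, while the individual genes ranged from -0.78 to 0.87.

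**Figure D1:**
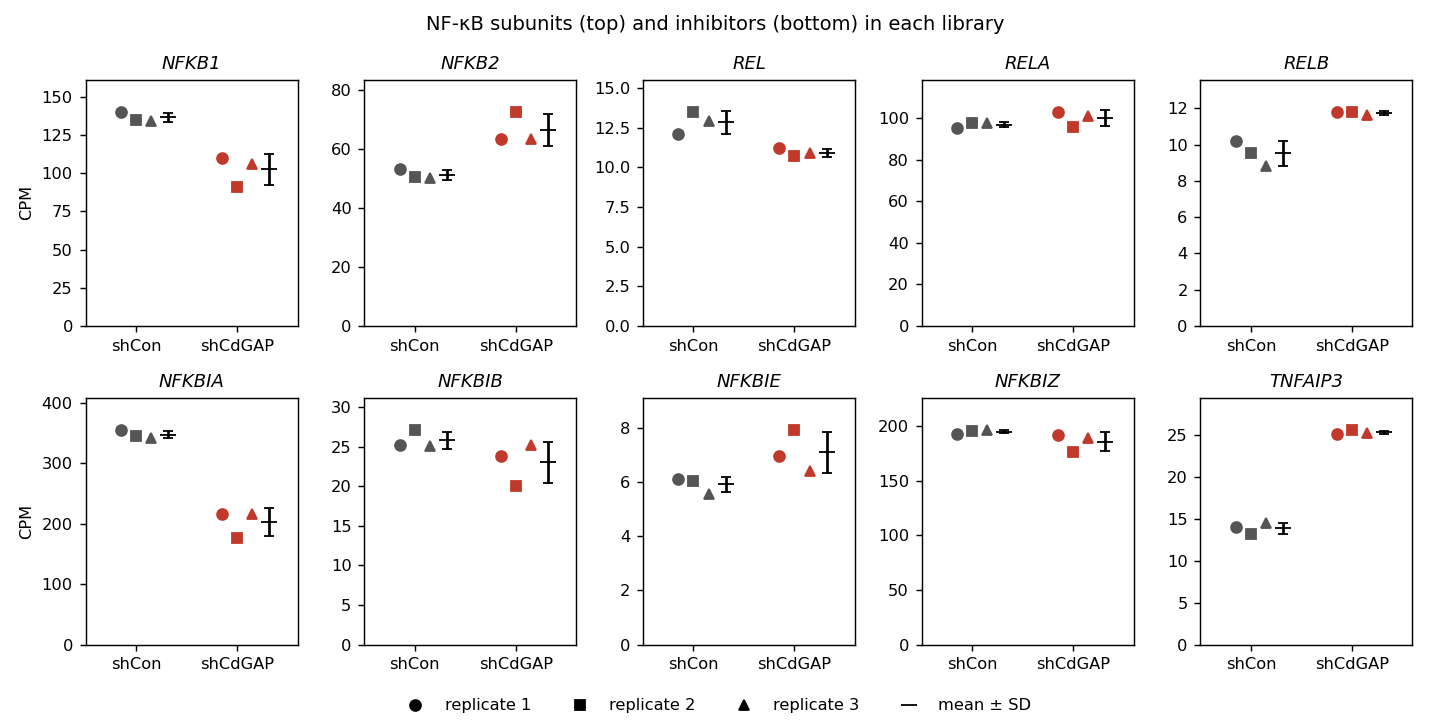
CPM of each NF-κB subunit gene (top row) and inhibitor gene (bottom row) in the 3 shCon and 3 shCdGAP libraries, with each axis starting at 0, symbols marking the replicate number and bars giving mean ± SD. The groups are separated most widely for NFKBIA (216, 176 and 216 against 354, 345 and 342) and TNFAIP3 (25.2, 25.6 and 25.3 against 14.0, 13.2 and 14.5), and they overlap for RELA and NFKBIB.

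**Figure D2:**
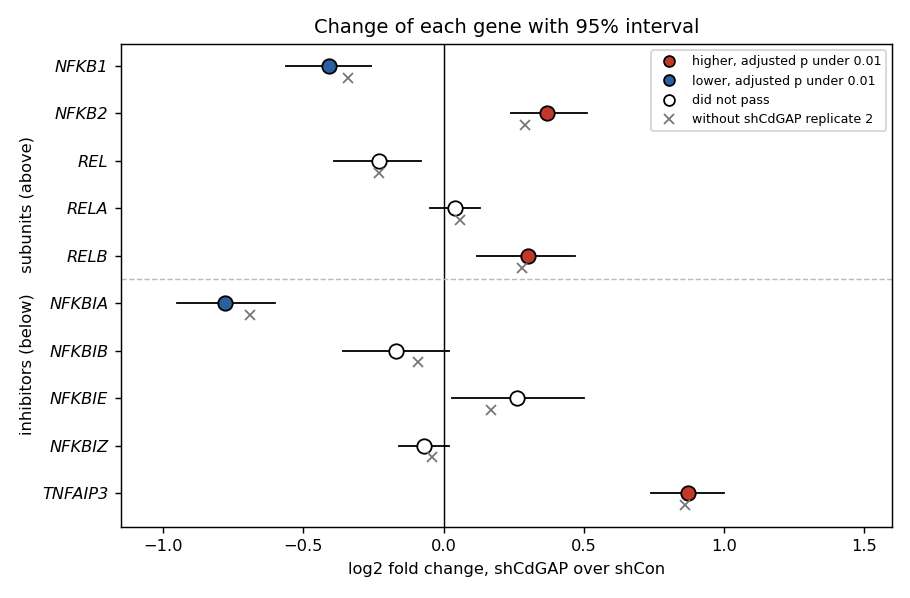
Log2 fold change of each member in shCdGAP over shCon cells by edgeR, with its 95% interval as a line. Filled circles passed an adjusted p under 0.01, open circles did not, and crosses give the value without shCdGAP replicate 2, which lies on the same side of 0 as the circle for each of the 10 genes.

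NFKB1 encodes p105, the precursor of p50. The gene (ENSG00000109320, chromosome 4 from 102501329 to 102617302, GRCh38) gathered 4469, 3970 and 3649 reads in shCdGAP replicates 1, 2 and 3 and 5861, 5712 and 4431 in shCon replicates 1, 2 and 3. Per library size these were 110, 91.2 and 106 CPM against 140, 135 and 134. The groups did not overlap, which held in one direction or the other for 67.1% of tested genes. The mean fell from 136 to 103 CPM, with coefficients of variation of 2.15% and 9.80% (n = 3 each) and a log2FC of -0.41 (SE 0.0662, adjusted p = 0.000696 by edgeR). The lowest library was shCdGAP replicate 2, without which the log2FC was -0.34.

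NFKB2 encodes p100, which restrains RelB and is processed to p52. NFKB2 (ENSG00000077150, chromosome 10 from 102394110 to 102402529) moved the other way from NFKB1, with 63.3, 72.6 and 63.3 CPM in shCdGAP and 53.2, 50.4 and 50.3 CPM in shCon libraries. The groups did not overlap, and shCdGAP replicate 2 was the highest. NFKB2 rose from a mean of 51.3 ± 1.68 to 66.4 ± 5.34 CPM (SD, 3 libraries each), or by 0.37 on the log2 scale (SE 0.0601, adjusted p = 0.00065 by edgeR), and of 0.29 without shCdGAP replicate 2.

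RELB, the Rel partner of p52, was read 480, 514 and 398 times in shCdGAP and 430, 402 and 291 times in shCon libraries (ENSG00000104856, chromosome 19 from 45001430 to 45038194). This corresponds to 11.8, 11.8 and 11.6 CPM against 10.2, 9.53 and 8.81 CPM, again without overlap. The rise of 0.30 on the log2 scale (SE 0.0766, 95% interval 0.12 to 0.47, adjusted p = 0.00849 by edgeR) was the weakest of the calls. With the replicate number as a block the adjusted p was 0.0134, and by DESeq2 it was 0.0160. It was also above 0.01 when shCdGAP replicate 1 (0.0324) or 3 (0.0211) or shCon replicate 1 (0.0135), 2 (0.0408) or 3 (0.0455) was left out, and 0.00117 without shCdGAP replicate 2. The sign was positive in all 13 alternatives.

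RELA, the main activating subunit of the canonical dimer, was nearly level between the groups (ENSG00000173039, chromosome 11 from 65653596 to 65663094). It had 103, 95.6 and 101 CPM in shCdGAP and 95.3, 97.7 and 97.5 CPM in shCon libraries, and the ranges overlapped. The log2 fold change was 0.04 with a 95% interval from -0.05 to 0.13 (adjusted p = 0.392 by edgeR), an interval that does not reach the values of NFKB1 or NFKB2. REL, which encodes c-Rel, had the lowest level of the subunits per exon length (ENSG00000162924, chromosome 2 from 60881521 to 60931610), with 11.2, 10.7 and 10.9 CPM in shCdGAP and 12.1, 13.5 and 12.9 CPM in shCon libraries. The groups did not overlap, but the log2 fold change of -0.23 (95% interval -0.39 to -0.08) did not pass, at an adjusted p of 0.0168 by edgeR. Without shCdGAP replicate 2 the value was also -0.23 and the adjusted p 0.00517. Of the 11255 exon bases of REL, 5702 are shared with an unnamed gene on the same strand, and reads in shared bases were not counted for either gene.

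Levels were compared between genes per exon length, as reads per kilobase of exon and per library size (RPKM, library sizes scaled by TMM). In shCon cells NFKBIA led with 146 ± 2.59 RPKM, followed by NFKBIZ at 32.7, 33.1 and 33.2 in its 3 libraries, NFKB1 at 21.8 ± 0.470, RELA at 17.7 ± 0.243, NFKB2 at 11.4 ± 0.374 and NFKBIB at 11.1 ± 0.474 (SD, n = 3 each). RELB at 3.15 ± 0.238, TNFAIP3 at 2.75 ± 0.135, NFKBIE at 2.29 ± 0.113 and REL at 1.14 ± 0.0604 RPKM formed the low end. Of the neighbours in this order, only NFKB2 and NFKBIB overlapped between libraries. With the exon bases that REL shares left out of its length it stood at 2.31 ± 0.122 RPKM, next to NFKBIE. In shCdGAP cells the order changed in the middle, where RELA (18.2 ± 0.658 RPKM), NFKB1 (16.4 ± 1.61) and NFKB2 (14.8 ± 1.19) followed each other with overlapping ranges, and TNFAIP3 (5.02 ± 0.0423) passed RELB (3.88 ± 0.0462).

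The makeup of the subunit pool moved accordingly. NFKB1 took 39.8%, 39.3% and 39.3% of the summed subunit RPKM in the shCon libraries and 31.8%, 27.4% and 31.2% in the shCdGAP libraries. NFKB2 took 21.2%, 20.4% and 20.6% in shCon and 25.5%, 30.5% and 26.0% in shCdGAP libraries. RELA held 32.1 ± 0.872% and 33.6 ± 0.552% (SD, n = 3 each). The 2 precursor genes therefore lay far apart in control cells and close together in depleted cells, with shCdGAP replicate 2 the only library in which NFKB2 was above NFKB1 (16.2 against 14.6 RPKM).

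The ratio of the genes of the non-canonical dimer (NFKB2 and RELB) to those of the canonical dimer (NFKB1 and RELA) was 0.384, 0.364 and 0.359 in shCon libraries and 0.496, 0.626 and 0.507 in shCdGAP libraries. On the log2 scale its mean was -1.44 ± 0.0497 in shCon and -0.89 ± 0.186 in shCdGAP cells (SD, n = 3 each), a difference of 0.55. The groups did not overlap, and the exact two-sided permutation p of 0.1 is the smallest that 3 against 3 libraries allow. NFKB1, NFKB2 and RELB were each called above, so this separation follows largely from those calls and is no separate result. The difference was 0.44 without shCdGAP replicate 2, the library with the highest ratio. These are ratios of transcripts, and neither the processing of p105 and p100 nor the dimers were measured.

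**Figure D3:**
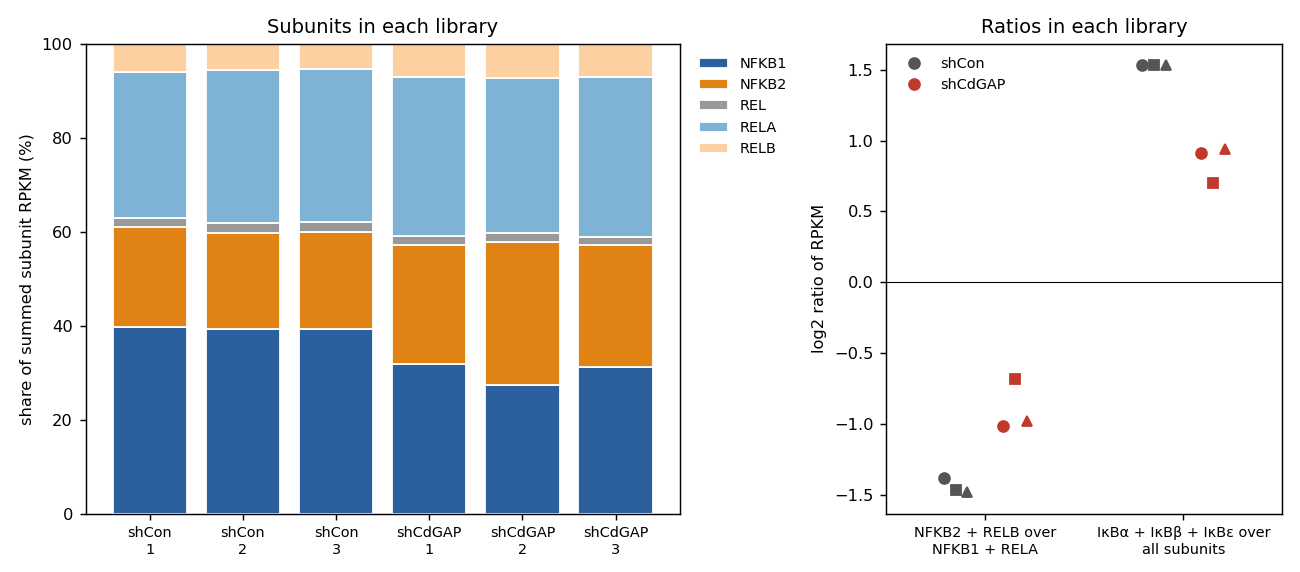
Left, share of each of the 5 subunit genes in their summed RPKM in every library, stacked to 100%. Right, log2 ratio of RPKM in every library for NFKB2 + RELB over NFKB1 + RELA and for the IκB genes NFKBIA + NFKBIB + NFKBIE over all 5 subunits, with symbols marking the replicate number. The first ratio is higher in each shCdGAP library than in any shCon library (means -0.89 and -1.44) and the second is lower (means 0.85 and 1.53).

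Among the inhibitors, NFKBIA showed the largest fall of any member. It encodes IκBα, the IκB protein that is resynthesised fastest after activation and carries NF-κB back out of the nucleus. NFKBIA (ENSG00000100906, chromosome 14 from 35401511 to 35404749) gathered 8747, 7679 and 7432 reads in shCdGAP and 14844, 14580 and 11294 reads in shCon libraries. These are 216, 176 and 216 CPM against 354, 345 and 342 CPM, so the highest depleted library was far below the lowest control library. The shCon mean was 347 ± 6.15 and the shCdGAP mean 203 ± 22.9 CPM (SD, n = 3 each), 0.584 of the control level. On the log2 scale NFKBIA fell by 0.78 (SE 0.0748, adjusted p = 4.3e-05 by edgeR), and its log2FC was -0.69 without shCdGAP replicate 2. Its absolute size was at the 80.1 percentile of all tested genes.

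TNFAIP3, which encodes the ubiquitin-editing enzyme A20 that shuts off signalling upstream of the IκB kinase, moved in the opposite direction. TNFAIP3 (ENSG00000118503, chromosome 6 from 137867188 to 137883312) gathered 1021, 1115 and 870 reads in shCdGAP and 587, 555 and 479 reads in shCon libraries. It stood at 25.2, 25.6 and 25.3 CPM against 14.0, 13.2 and 14.5 CPM, with hardly any spread among the depleted libraries. Mean levels were 25.4 ± 0.214 in shCdGAP and 13.9 ± 0.681 CPM in shCon cells (SD, n = 3 each), 1.83-fold, with a log2FC of 0.87 (SE 0.0565, adjusted p = 2.5e-06 by edgeR). It was 0.86 without shCdGAP replicate 2, and 82.9% of tested genes had a smaller absolute change. NFKBIA and TNFAIP3 are both textbook NF-κB-induced inhibitors, and they were the members with the largest fall and the largest rise.

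The remaining inhibitors did not pass the threshold. NFKBIB, encoding IκBβ (ENSG00000104825, chromosome 19 from 38899700 to 38908893), had 23.8, 20.1 and 25.2 CPM in shCdGAP and 25.3, 27.1 and 25.1 CPM in shCon libraries, which overlapped (log2 fold change -0.17, 95% interval -0.36 to 0.02, adjusted p = 0.110 by edgeR). NFKBIE, encoding IκBε (ENSG00000146232, chromosome 6 from 44258166 to 44265788), had the fewest reads of the members, with 282, 344 and 220 in shCdGAP and 256, 255 and 184 in shCon libraries. Its 6.96, 7.90 and 6.40 CPM lay above the 6.10, 6.04 and 5.57 CPM of the controls, with a log2 fold change of 0.26 (95% interval 0.03 to 0.50, adjusted p = 0.0520 by edgeR). Counting error was 7.37% in its lowest library, and the coefficient of variation among the shCdGAP libraries was 10.7%.

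NFKBIZ encodes IκBζ, a nuclear IκB protein that acts as a cofactor of p50 at secondary response genes rather than as a cytoplasmic anchor. It was the second most abundant member (ENSG00000144802, chromosome 3 from 101827991 to 101861022), with 192, 176 and 189 CPM in shCdGAP and 193, 195 and 196 CPM in shCon libraries. The groups were barely separate, and the log2 fold change of -0.07 (95% interval -0.16 to 0.02) did not pass, at an adjusted p of 0.180 by edgeR. NFKBIZ shares 194 exon bases on the same strand with NXPE3, a gene that rose from 33.3 ± 0.706 to 81.4 ± 4.24 CPM (SD, n = 3 each, log2 fold change 1.29, adjusted p = 1.17e-07).

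The transcript ratio of the cytoplasmic IκB genes (NFKBIA, NFKBIB and NFKBIE) to all 5 subunits was 2.89, 2.90 and 2.88 in the shCon libraries and 1.87, 1.62 and 1.92 in the shCdGAP libraries. The control libraries were almost identical, and every depleted library was lower. The log2 difference was -0.68 (exact two-sided permutation p = 0.1, the smallest possible) and -0.61 without shCdGAP replicate 2. It follows largely from the fall of NFKBIA, already called above, and is no separate result. NFKBIA made up 91.6 ± 0.330% of the IκB transcripts in shCon and 87.0 ± 0.599% in shCdGAP cells, while the share of NFKBIB was 6.97 ± 0.309% and 10.1 ± 0.263% and that of NFKBIE 1.43 ± 0.0507% and 2.84 ± 0.629% (SD, n = 3 each).

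Since several members are themselves known NF-κB targets, the κB consensus motif, a site of 10 bases, was searched on both strands in promoter windows of RefSeq (GRCh38.p14) from 250 bases before to 50 after a start. Windows were at hand for 8 members (14 windows in all), and 7 of the 8 held at least 1 match, RELA being the exception. The motif was found in 13.3% of the 27305 genes with a window and in 11.3% of single windows. The matches before a RefSeq start are shown within 30 bases in the direction of transcription, in lower case with the matching bases in capitals. They let the called members be set beside those that did not pass. RefSeq starts can differ from the Ensembl spans given above. The matches of NFKB2, REL, NFKBIB and TNFAIP3 and the second match of NFKBIZ lie inside those spans.
NFKB1, chr4:102501300-102501329, plus strand: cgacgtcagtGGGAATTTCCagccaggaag
NFKB2, chr10:102394461-102394490, plus strand: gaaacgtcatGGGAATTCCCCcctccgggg
NFKB2, chr10:102394490-102394519, plus strand: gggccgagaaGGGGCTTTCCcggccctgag
NFKB2, chr10:102395519-102395548, plus strand: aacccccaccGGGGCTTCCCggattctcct
NFKB2, chr10:102395674-102395703, plus strand: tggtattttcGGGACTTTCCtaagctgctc
REL, chr2:60881517-60881546, plus strand: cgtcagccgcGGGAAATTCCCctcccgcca
NFKBIA, chr14:35404811-35404840, minus strand: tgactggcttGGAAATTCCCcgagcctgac
NFKBIB, chr19:38899931-38899960, plus strand: gggcgtggtgGGGAATTTCCCgcagggcgg
NFKBIZ, chr3:101827757-101827786, plus strand: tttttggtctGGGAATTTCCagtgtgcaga
NFKBIZ, chr3:101849265-101849294, plus strand: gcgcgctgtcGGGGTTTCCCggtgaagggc
TNFAIP3, chr6:137867188-137867217, plus strand: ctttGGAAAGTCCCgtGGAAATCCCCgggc

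A run of 11 capitals holds overlapping matches. The same 10 letters, GGGAATTTCC, stand in the windows of NFKB1, which fell, and of NFKBIB and NFKBIZ, which did not pass. Their reverse complement, GGAAATTCCC, and so the same site on the other strand, stands in the windows of NFKBIA, which fell, and of REL, which did not pass. TNFAIP3 holds a pair of matches whose first bases are 67 and 55 bases before its RefSeq start, which lies inside the Ensembl span. NFKBIA holds a single match that begins 81 bases before its RefSeq start. A match describes the letters only and was not measured as a bound site. The NFKBIA window is given in full up to its start (chr14:35404750-35404999, minus strand) as the promoter of the member that fell most, with the match in capitals.
NFKBIA: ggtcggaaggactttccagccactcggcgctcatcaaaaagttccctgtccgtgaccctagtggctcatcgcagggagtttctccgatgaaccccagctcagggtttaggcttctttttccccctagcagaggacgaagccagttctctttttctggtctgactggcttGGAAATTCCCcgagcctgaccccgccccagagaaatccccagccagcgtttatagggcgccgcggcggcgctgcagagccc

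Each member was also set beside its chromosome neighbours. No member lies on chromosome 9 or 13. The median log2FC of the 20 tested genes nearest to NFKBIA was -0.15, and those nearest to TNFAIP3 was -0.16, against -0.78 and 0.87 for the members themselves. For NFKB1, NFKB2 and RELB the neighbours' medians were -0.01, 0.00 and -0.02, and for RELA, REL, NFKBIB and NFKBIE they were 0.13, 0.10, 0.04 and -0.10. NFKBIZ was the exception: its neighbours had a median of 0.46 with 15 of 20 above 0, while NFKBIZ itself was at -0.07. The 5 called members were picked by their own change, and their neighbours' medians lay between -0.16 and 0.00. Their distance from the neighbours therefore follows largely from the call and is no separate result.

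**Figure D4:**
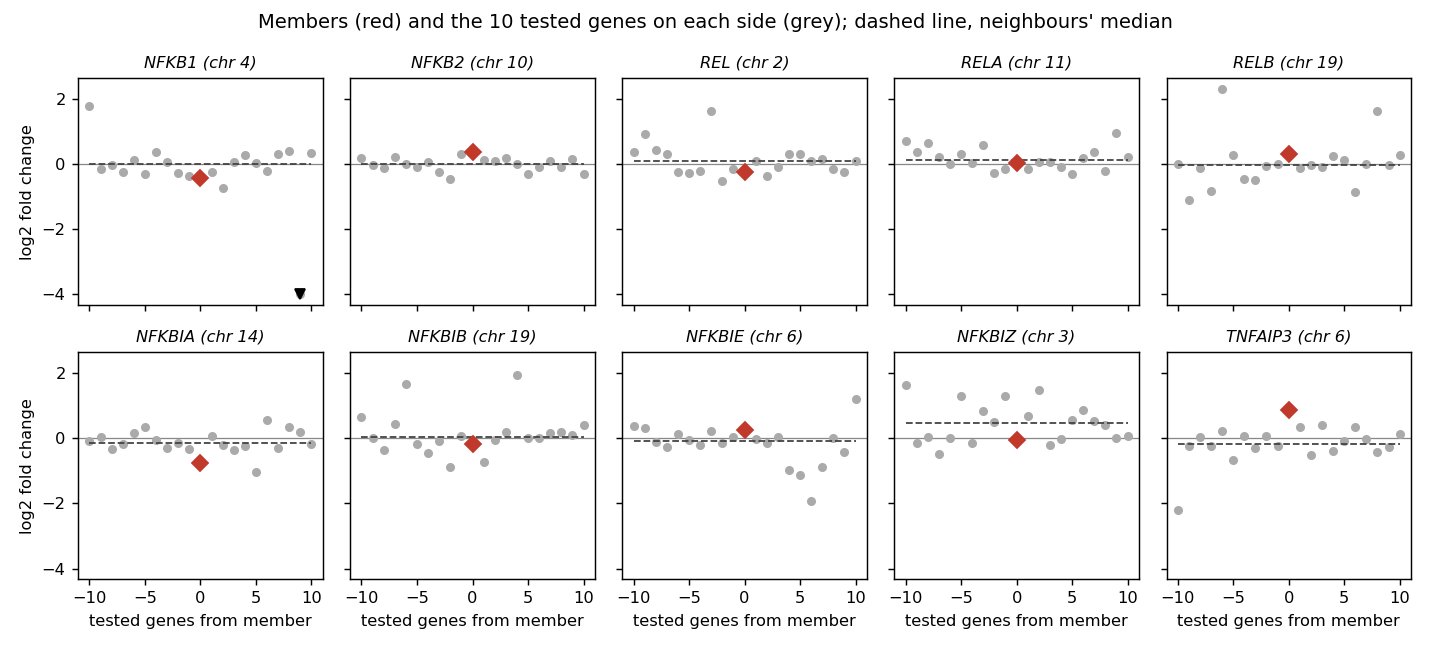
Log2 fold change (shCdGAP over shCon, edgeR) of each member (red diamond) and of the 10 tested genes on each side (grey circles), placed by their order along the chromosome. The dashed line is the median of the 20 neighbours, and a black triangle marks a neighbour below -4 drawn at the edge. NFKBIA and TNFAIP3 stand away from their neighbours' medians of -0.15 and -0.16, and the neighbours of NFKBIZ have a median of 0.46.

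Other genes of the pathway were taken from 4 lists. Of 29 kinases and adaptors of the canonical and non-canonical routes, 7 rose, 7 fell and 15 did not pass (48.3% called, against 46.2% of all tested genes by edgeR). None exceeded 1 in absolute log2FC, and the 4 largest called changes among well-read genes belonged to TRAF2 (-0.87), an adaptor of TNF receptors, MAP3K14 (-0.84), which encodes NIK, BCL10 (0.73), a scaffold of the CARD complex, and MYD88 (-0.71), the adaptor of Toll-like and IL-1 receptors. MAP3K14, the kinase of the non-canonical route, fell from 24.7 ± 0.777 to 13.8 ± 1.43 CPM (SD, n = 3 each, adjusted p = 2.19e-05) while NFKB2 and RELB rose. TRAF2 is a chromosome 9 gene whose neighbours had a median log2FC of -0.45, and for MYD88 the neighbours' median was -0.59.

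Of 17 further regulators of the pathway, listed mostly for restraining it, 5 rose, 6 fell and 6 did not pass (64.7% called, against 46.2% of all tested genes). TNIP2, a partner of A20, dropped from 64.0 ± 1.42 to 24.9 ± 1.02 CPM (SD, n = 3 each), with a log2FC of -1.36 (adjusted p = 6.53e-08 by edgeR). RNF11 and TAX1BP1, other components of the A20 complex, rose by 0.83 and 0.81 on the log2 scale (adjusted p = 1.7e-06 and 1.34e-07). BCL3, a nuclear IκB protein that binds p50 and p52, fell by 0.82 (adjusted p = 5.55e-05). The parts of the A20 complex named here therefore moved in both directions. The neighbours' median log2FC was -0.27 for TNIP2, 0.27 for RNF11, 0.29 for TAX1BP1 and -0.11 for BCL3, each on the side of the gene's own change.

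Of 27 ligands and receptors 21 were read well enough to be tested, with 11 higher, 3 lower and 7 not passing. This is 66.7% called, against 46.2% of all tested genes. Most of the 11 higher genes averaged under 3 in log2 CPM, while the 3 lower genes all averaged above it. IL1RN, CD40 and TLR3, all called higher, passed the filter on low counts through their shCdGAP reads, and with at least 10 reads required in every library 8 were higher and 3 lower. Without shCdGAP replicate 2, a fit in which more genes were called throughout, the number lower was 5. The 4 largest called changes among well-read genes were a rise of the receptor gene TLR2 (1.37) and falls of TLR4 (-0.97), of TNFRSF1A (-0.75), the main TNF receptor, and of IL1RAP (-0.58), the shared IL-1 receptor chain. TNFRSF1A had 78.3, 91.6 and 78.8 CPM in shCdGAP and 140, 139 and 140 CPM in shCon libraries (adjusted p = 8.81e-06 by edgeR). TLR4 lies on chromosome 9, where its neighbours had a median of -0.39. CD40, named after its values were seen, had 11, 17 and 9 reads in shCdGAP and none in shCon libraries, at least 3.96-fold higher with 3 reads per library as the floor.

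Of 37 genes known to be induced by NF-κB, 33 were tested, and 18 rose, 8 fell and 7 did not pass. This is 78.8% called, against 46.2% of all tested genes. VCAM1, TRAF1 and MMP9, named like IL1RN and TLR3 after their values were seen, passed the filter through their shCdGAP reads, and with at least 10 reads required in every library 15 targets were higher and 9 lower. The target genes moved in both directions and over a far wider range than the members. CCL2, a monocyte-attracting chemokine, rose from 20.4 ± 0.792 to 502 ± 110 CPM and PTGS2, the inducible cyclooxygenase, from 30.6 ± 0.818 to 265 ± 9.67 CPM (log2 fold changes 4.62 and 3.11, SD, n = 3 each). LCN2, an iron-binding secreted protein, and CXCL5, a neutrophil chemokine, fell (log2 fold changes -4.32 and -2.35), LCN2 from chromosome 9 with a neighbours' median of -0.52. LCN2 had 1769, 4905 and 1376 reads in shCdGAP replicates 1, 2 and 3, and without shCdGAP replicate 2 its log2FC was -4.98. In the promoter windows the κB motif was found in 58.6% of 29 of these genes, against 13.3% of all genes. Of the 15 tested targets with a match 4 rose, 4 fell and 7 did not pass, and of all 1986 tested genes with a match 540 rose and 512 fell. Of the 11 tested targets without a match 9 rose and 2 fell, and of all 9504 tested genes without a match 2379 rose and 2366 fell. Only these 15 and 11 of the 33 tested targets had a window. Sites outside the windows were not searched, so a gene without a match may still hold one elsewhere.

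**Figure D5:**
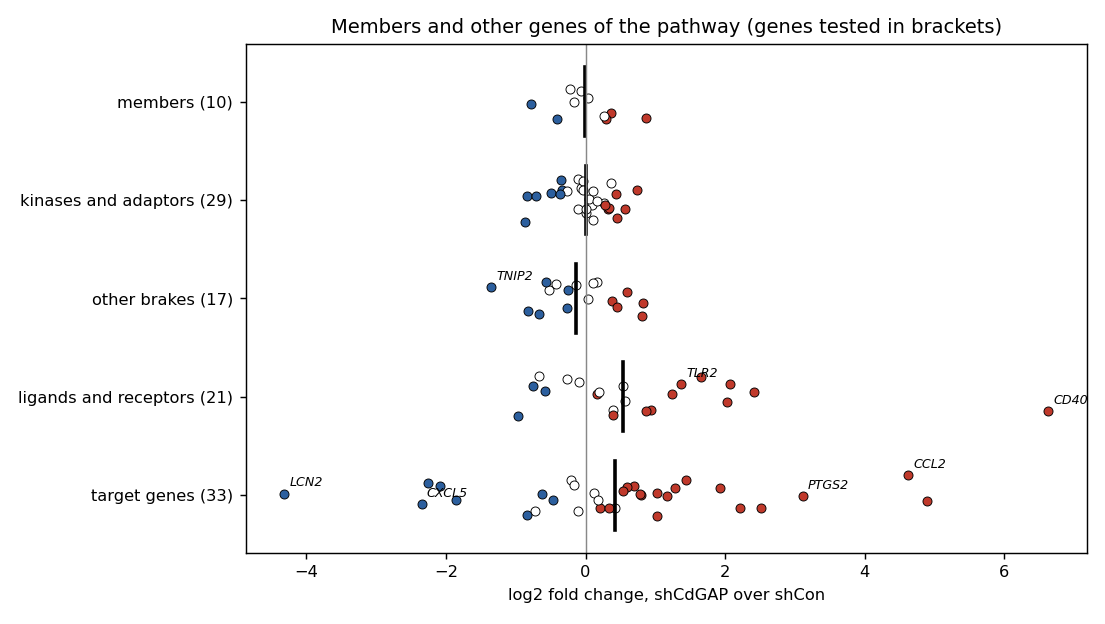
Log2 fold change (shCdGAP over shCon, edgeR) of the 10 members and of the tested genes of the 4 pathway lists, with vertical bars at each list's median and height within a row without meaning. Red and blue circles passed an adjusted p under 0.01 and open circles did not. The members lie within 1 of 0 while the target genes run from LCN2 at -4.32 to CCL2 at 4.62 and beyond. CD40 had no read in shCon cells, so its place on the axis is not a measured size.

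The genes whose pattern over the 6 libraries was nearest to TNFAIP3, the member with the largest change, were sought by the Euclidean distance of centred log2 CPM among 10281 well-read genes. They were CLCN6 (distance 0.0773, log2 fold change 0.82), POMGNT1 (0.0870 and 0.87) and ADAMTS1 (0.0940 and 0.89). POMGNT1 had 115, 117 and 117 CPM in shCdGAP and 64.7, 62.7 and 63.6 CPM in shCon libraries.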

How the data were processed

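The authors deposited raw counts of read pairs per gene, 1 table per library. Reads were aligned to GRCh38 with STAR 2.5.1b and counted with featureCounts on Ensembl release 77, strand-specifically. Version 1.6.0 is named in the headers and 1.4.6 in the methods, which also name a single-read kit, and the headers were followed. Read pairs with several alignments, or in exons that genes share on a strand, were not counted.

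Counts were analysed with edgeR 4.0.16 in R 4.3.3 (filterByExpr, TMM, robust quasi-likelihood F test, Benjamini-Hochberg adjustment over 16439 genes, no pairing). Calls used an adjusted p under 0.01. Standard errors are the absolute log2 fold change over the square root of F. Symbols were matched by Ensembl ID, and 109 of 110 genes of the pathway lists matched. Tests were checked on simulated counts, which gave every gene the same spread and had no library standing apart as shCdGAP replicate 2 did. Members and lists were chosen with earlier results of these data known. Named pathway genes are the 4 largest changes per list among those called, averaging 3 or more in log2 CPM, with groups that do not overlap. Nothing says that libraries came from separate cultures beyond the methods naming independent samples, so p-values measure the spread between these libraries.

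Deviations of same-numbered libraries of the groups were weakly correlated (0.121, 0.126 and 0.117, against -0.204 to 0.104 for differing numbers). They were centred within each group of 3, which ties them to each other, so a pairing is not established. The labels give only the number. DESeq2 1.42.0, other scalings, filters and thresholds, the replicate block and each library left out were tried as alternatives.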

Additional observations from a re-analysis of the deposited data

How the results depend on the processing

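Over 13 alternatives for each member, 121 of 130 values kept the direction and the side of the 0.01 threshold, and none changed sign. The exceptions were RELB, which did not pass in 8 alternatives (adjusted p up to 0.0455, among them 0.0119 with TMM factors from genes outside chromosomes 9 and 13, chosen after seeing the data), and REL, which passed without shCdGAP replicate 2. The replicate block changed the call of RELB alone among the named genes (2 members higher and 2 lower). A further 20 named genes kept their call and direction in all 260 values. Leaving out a library gave 2 to 3 members higher, 2 to 3 lower, 34 to 49 pathway genes higher and 22 to 33 lower, against 41 and 24 with all libraries. The number of all genes called in these fits also varied, from 5787 to 10035, the highest without shCdGAP replicate 2. The difference in subunit balance was 0.79 for NFKB2 over NFKB1 alone, a narrower ratio, and 0.44 to 0.61 with a library left out. That of inhibitors to subunits was -0.73 to -0.61. With differences within replicate numbers the exact p of both balances was 0.25, the smallest that 3 pairs allow. Among ligands and receptors 5 rather than 3 genes were lower without shCdGAP replicate 2 or at an adjusted p under 0.05. Counting error was largest for NFKBIE, RELB and REL, with 184, 291 and 373 reads in their lowest libraries.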
